A study of Bos taurus with 12 samples.

Results

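Cyclins and the cyclin-dependent kinases they activate were followed through bovine oocyte maturation, from the abundance of their mRNAs and from the N6-methyladenosine (m6A) peaks called on them. The family was 10 genes chosen by name, the B-type cyclins CCNB1, CCNB2 and CCNB3, cyclin A2 (CCNA2), the E-type cyclins CCNE1 and CCNE2, cyclin O (CCNO), the kinases CDK1 and CDK2 and the kinase-binding subunit CKS2. All 10 were found once in an expression table of 16675 genes, and all 10 averaged 1 FPKM or more in the input libraries, the level that 11739 genes reached and at which they were tested.

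The tested stage was metaphase of the second meiotic division (MII), at which a mature oocyte waits for fertilisation, and it was set against the germinal vesicle (GV) stage, at which the oocyte is still arrested in prophase of the first division. From Bos taurus oocytes cultured in vitro, 3 poly(A) RNA libraries per stage served as input and 3 held RNA pulled down with an antibody against m6A, which makes 12 libraries. The labels give no breed, treatment, animal age or number of oocytes, and they do not say whether the libraries of a stage stem from different animals or culture runs. The p-values therefore measure only how these libraries spread, which may be technical. Expression was given as FPKM, fragments scaled to transcript length and library size, for each input library, whereas m6A peaks came as 1 list per stage and 1 table of differences.

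Cyclins are the regulatory partners of the cyclin-dependent kinases, which are inactive without them. CDK1 bound to a B-type cyclin is the kinase activity that ends prophase arrest and builds the meiotic spindle. Cyclin B is destroyed between the meiotic divisions and made again before MII arrest, so the oocyte, which no longer transcribes, depends on its store of cyclin mRNA. In frog and mouse oocytes translation of the cyclin B1 message is switched on by lengthening of its poly(A) tail. m6A is a methyl mark within mRNA that reader proteins use to direct decay and translation.

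Input libraries were alike within a stage. Spearman's correlation over the tested genes was 0.983 between MII libraries, 0.986 to 0.987 between GV libraries and 0.912 to 0.918 for pairs of different stage. These are correlations over genes, which are no independent replicates. Between 1282 and 1727 genes were listed at 0 in MII libraries and between 3722 and 3765 in GV libraries, but no member was at 0 in any library. All 14 oocyte markers were tested, of which 9 were higher and 1 lower in MII, with a median change of 0.27 (MII minus GV on the log2(FPKM + 1) scale, in limma). Their summed level was 2933 to 3096 FPKM in MII libraries and 2120 to 2132 FPKM in GV libraries, and DDX4 and DAZL had the lowest MII means, at 12.6 and 10.9 FPKM. Of 25 cumulus and granulosa markers, 16 were in the table and 9 were tested, of which 3 were higher and 5 lower in MII. Their summed level was 217.9 to 224.3 FPKM in MII libraries and 226.3 to 239.1 FPKM in GV libraries, and STAR gave most of it. The higher markers were STAR, GREM1 and CLU, and the lower ones VIM, PTGS2, GJA1, HAS2 and VCAN. HAS2 was at 20.7 to 22.3 FPKM in MII libraries and 32.7 to 35.4 FPKM in GV libraries. FSHR was at 0 in every MII library and at most 0.140 FPKM in GV libraries. CYP19A1 was found in every library, at 0.432 to 0.551 FPKM in MII and 0.0738 to 0.189 FPKM in GV. Of 8 blood and immune markers 3 were tested, and 2 of them were higher in MII, with sums of 38.2 to 39.0 FPKM in MII libraries and 31.2 to 33.1 FPKM in GV libraries. The part of other cells in the values below was not tested.

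Of the 10 members, 3 were higher in MII (CDK1, CDK2 and CCNB2), 5 were lower (CCNB1, CCNA2, CCNE2, CCNO and CKS2) and 2 were not called (CCNB3 and CCNE1). The test was limma on log2(FPKM + 1) across all tested genes with Benjamini-Hochberg adjustment at 0.05, and the change given below is MII minus GV on that scale. Over all tested genes 60.8% were called, 32.0% higher and 28.8% lower, so being called was common at large and the count of 8 in 10 says little about the family. The median change was -0.26 over the members and 0.01 over all tested genes. The libraries of the stages did not overlap for 8 members, against 67.3% of all tested genes. In bulk samples less RNA per cell and fewer cells of a type cannot be told apart, and oligo(dT) selection means that each value is that of RNA the beads bound. FPKM is scaled to library size, so higher, lower, rise and fall refer to a share of the library. They do not give amounts of RNA per oocyte.

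**Figure D1:**
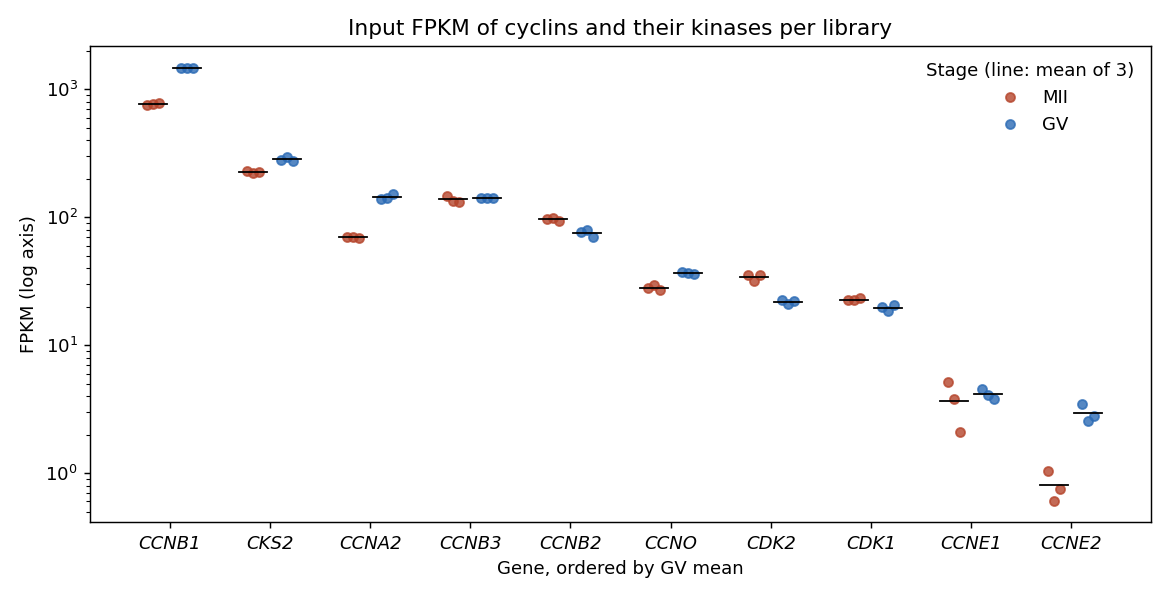
Input FPKM (log axis) of the 10 genes in each library, MII left of GV for each gene, with 1 point per library and a line at the mean of 3. CCNB1 stands above all other members at both stages, and CCNE2 is the lowest at both.

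CCNB1 (ENSBTAG00000014239, chromosome 20, 10507979 to 10517702, minus strand), the main cyclin partner of CDK1, was the most abundant member at both stages. It had 759.0, 764.7 and 782.0 FPKM in MII libraries 1, 2 and 3, against 1456, 1478 and 1478 FPKM in GV libraries. The MII mean was 0.523 of the GV mean, with no overlap and little spread within a stage. The change was -0.94 (SE 0.034, limma adjusted p = 1.5e-06), and CCNB1 ranked place 40 by level among the tested genes in MII and place 30 in GV. After quantile normalization, which fixes the values of top-ranked genes, the change was -0.61.

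CCNB2 (ENSBTAG00000005269, chromosome 10, 51184626 to 51209368, minus strand), a second B-type partner of CDK1, moved the other way. It had 96.7, 98.5 and 93.5 FPKM in MII libraries, against 76.6, 78.9 and 69.8 FPKM in GV libraries. All MII libraries were above all GV libraries, with a change of 0.35 (SE 0.054, limma adjusted p = 0.00093). CCNB3 (ENSBTAG00000046286, chromosome X, 87970000 to 88000785, plus strand), a cyclin that mouse oocytes need to leave metaphase of the first division, had 146.0, 135.0 and 132.1 FPKM in MII libraries, against 140.7, 141.7 and 142.5 FPKM in GV libraries. MII library 1 was above and MII libraries 2 and 3 below every GV library, so the groups overlapped. The change of -0.04 was not called (limma adjusted p = 0.45), with a 95% interval of -0.15 to 0.06.

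The opposite moves of CCNB1 and CCNB2 changed the make-up of the B-type pool. FPKM is scaled by transcript length, and ratios between genes below are ratios of FPKM. They refer to RNA that the beads bound, and how binding differs between messages was not tested. The ratio of CCNB1 to CCNB2 was 7.85, 7.77 and 8.37 in MII libraries, against 19.0, 18.7 and 21.2 in GV libraries. All MII ratios lay below all GV ratios, with a difference of -1.29 on the log2 scale, and the 2-sided exact permutation test gave p = 0.1, the smallest that 3 libraries against 3 allow. Of the summed FPKM of the B-type cyclins, CCNB1 made up 76.7% ± 0.924 in MII and 87.2% ± 0.248 in GV (SD, n = 3 each). CCNB1 made up 69.6% ± 1.03 of the summed FPKM of the 7 cyclins in MII and 78.4% ± 0.0411 in GV (SD, n = 3 each). That sum was 1105 ± 2.49 FPKM in MII and 1875 ± 15.4 FPKM in GV.

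CCNA2 (ENSBTAG00000004943, chromosome 6, 3425574 to 3431686, plus strand), a cyclin that binds both CDK1 and CDK2 and serves DNA replication and entry into division, had 70.2, 70.1 and 69.4 FPKM in MII libraries, against 138.7, 142.4 and 151.3 FPKM in GV libraries. The stages did not overlap, and the change of -1.03 (SE 0.043, limma adjusted p = 2.9e-06) was the second most negative of the family. Its place among the tested genes by level was 1046 in MII and 372 in GV.

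The E-type cyclins, which activate CDK2 at the start of DNA replication in dividing cells, were the least abundant members. CCNE2 (ENSBTAG00000004906, chromosome 14, 69448183 to 69460811, plus strand) had 1.04, 0.610 and 0.750 FPKM in MII libraries, against 3.50, 2.57 and 2.77 FPKM in GV libraries. The stages did not overlap and the change was -1.13 (SE 0.16, limma adjusted p = 0.00057). Its size depends on the constant added to such low values and was -1.77 with 0.1 and -0.45 with 5 in place of 1. CCNE1 (ENSBTAG00000004735, chromosome 18, 40424330 to 40434833, plus strand) had 5.16, 3.78 and 2.08 FPKM in MII libraries, against 4.56, 4.07 and 3.77 FPKM in GV libraries. The MII libraries spread on both sides of the GV range, the change of -0.19 was not called (limma adjusted p = 0.52) and its 95% interval was -0.75 to 0.37. Without MII library 3 the change of CCNE1 was 0.083. The ratio of CCNE2 to CCNE1, taken with 1 FPKM added to each, was 0.332, 0.337 and 0.569 in MII libraries, against 0.809, 0.705 and 0.790 in GV libraries, without overlap (2-sided exact permutation p = 0.1, the smallest possible). The difference was -0.94 on the log2 scale and -1.52 with 0.1 FPKM added in place of 1.

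CCNO (ENSBTAG00000047594, chromosome 20, 23901697 to 23903855, plus strand), a cyclin known for the making of multiciliated cells, had 27.8, 29.4 and 27.0 FPKM in MII libraries, against 37.6, 36.5 and 35.8 FPKM in GV libraries. All MII libraries were lower, with a change of -0.37 (SE 0.053, limma adjusted p = 0.00067).

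Both kinases were higher in MII. CDK1 (ENSBTAG00000010109, chromosome 28, 16488142 to 16582565, plus strand), the kinase of entry into division, had 22.4, 22.4 and 23.3 FPKM in MII libraries, against 19.8, 18.6 and 20.4 FPKM in GV libraries. The stages did not overlap, but the change was small at 0.20 (SE 0.060, limma adjusted p = 0.020). The call was lost with median scaling (adjusted p = 0.10), quantile normalization (0.073) and removal of mitochondrial genes (0.13), and without GV library 2 (0.070) or MII library 3 (0.063). CDK2 (ENSBTAG00000004021, chromosome 5, 57339030 to 57344446, minus strand), the partner of A- and E-type cyclins, had 35.1, 31.8 and 35.7 FPKM in MII libraries, against 22.7, 20.8 and 22.1 FPKM in GV libraries. Every MII library was above every GV library, with a change of 0.62 (SE 0.065, limma adjusted p = 0.00014).

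CKS2 (ENSBTAG00000001938, chromosome 8, 88791395 to 88796446, minus strand), a small subunit that docks the kinases on their phosphorylated targets and that mouse oocytes need to pass metaphase of the first division, had 231.4, 222.8 and 224.5 FPKM in MII libraries, against 281.4, 295.9 and 277.3 FPKM in GV libraries. The MII libraries were all lower, with a change of -0.33 (SE 0.039, limma adjusted p = 0.00026).

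**Figure D2:**
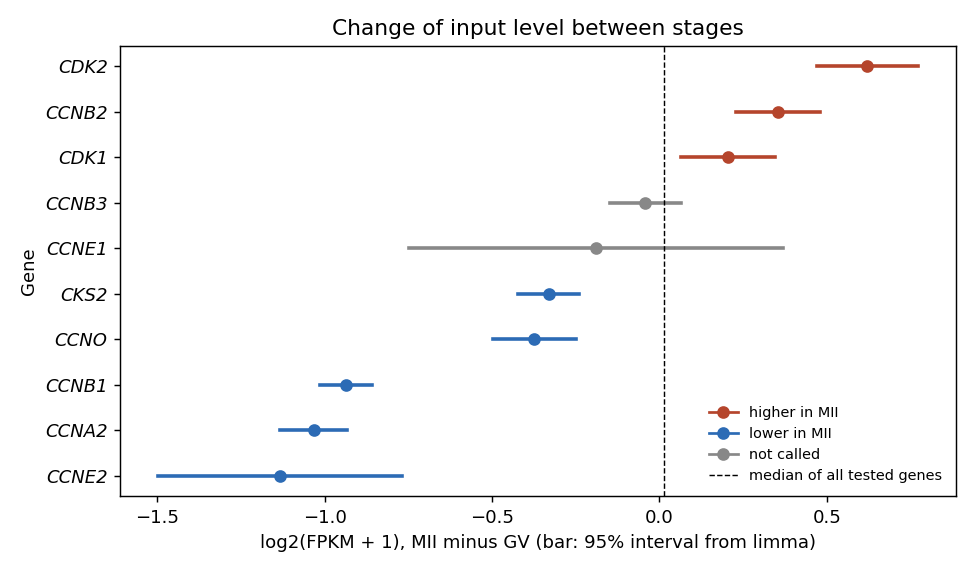
Change of each gene between stages, MII minus GV on the log2(FPKM + 1) scale, with 95% intervals from limma and a dashed line at the median of all tested genes, 0.01. CDK2, CCNB2 and CDK1 lie to the right, CCNB1, CCNA2, CCNE2, CCNO and CKS2 to the left, and the intervals of CCNB3 and CCNE1 span 0.

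The FPKM of CCNB1 far exceeded that of its kinase CDK1 at both stages, by a smaller factor in MII. The ratio of CCNB1 to CDK1 was 33.8, 34.2 and 33.6 in MII libraries, against 73.5, 79.6 and 72.4 in GV libraries. The groups did not overlap, the difference was -1.15 on the log2 scale, and the 2-sided exact permutation test gave p = 0.1, the smallest it could give.

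**Figure D3:**
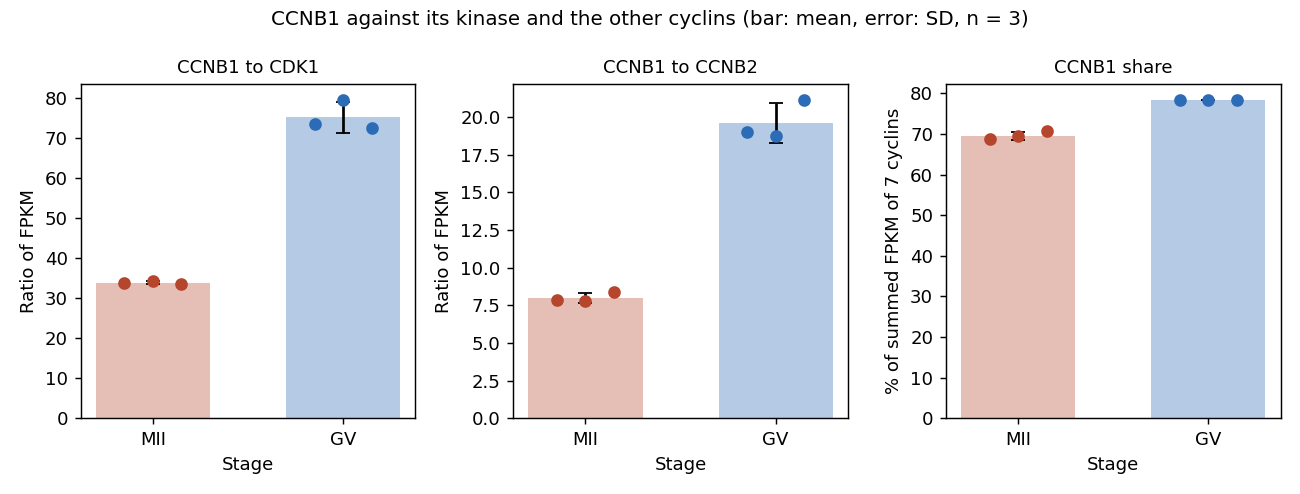
Ratio of CCNB1 to CDK1 and of CCNB1 to CCNB2 (ratios of FPKM), and share of CCNB1 in the summed FPKM of 7 cyclins (percent), for MII and GV, with bars at the mean, error bars of 1 SD and 1 point per library (n = 3 each). Every MII point lies below every GV point in all 3 panels.

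In order of level, MII oocytes had CCNB1, CKS2, CCNB3, CCNB2, CCNA2, CDK2, CCNO, CDK1, CCNE1 and CCNE2. GV oocytes had CCNB1, CKS2, CCNA2, CCNB3, CCNB2, CCNO, CDK2, CDK1, CCNE1 and CCNE2. Neighbours in these orders did not overlap over libraries, except CCNA2 and CCNB3 in GV, whose ranges overlapped. CCNA2 thus stood at place 5 in MII and place 3 in GV, and CDK2 and CCNO exchanged places.

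The genes closest to CCNB1 by Euclidean distance of log2(FPKM + 1) over the 6 input libraries were a Metazoa_SRP copy (ENSBTAG00000047789, distance 0.23), the histone gene H3C3 (0.52) and bta-mir-2887-1 (0.56). The Metazoa_SRP copy had 718.6 ± 35.6 FPKM in MII and 1410 ± 40.0 FPKM in GV, and H3C3 had 719.4 ± 77.5 FPKM in MII and 1234 ± 9.93 FPKM in GV (SD, n = 3 each). These belong to families of near-identical copies, so their values are uncertain. Closest to CDK1 were CMIP (0.066), PMM2 (0.074) and RNF121 (0.11).

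Partner genes were described by 5 lists, read against 32.0% higher, 28.8% lower and a median of 0.01 over all tested genes. That balance of 3761 higher and 3379 lower genes turned to 3330 and 3946 with median scaling, 3255 and 3990 with quantile normalization and 3191 and 3936 without mitochondrial genes. Among other cyclins, kinases and CKS subunits, 16 of 36 tested genes were higher and 6 lower in MII, with a median change of 0.12. CDK4, the kinase of D-type cyclins, was at 8.87 ± 1.44 FPKM in MII and 0.988 ± 0.0675 FPKM in GV (SD, n = 3 each), a rise of 2.30 in limma. CDK10 rose by 1.41, while the cyclins CCNG2 and CCNC fell by 0.80 and 0.67. CDK4 and CDK10 had GV means, and CCNC a MII mean, under 1 FPKM, so the sizes of their changes are uncertain.

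Genes that set the phosphorylation of CDK1, listed together with the Greatwall kinase and its targets, had 4 of 8 tested members higher and 2 lower, with a median of 0.24. ENSA and ARPP19, the phosphatase inhibitors that Greatwall activates, rose by 0.63 and 0.56. WEE2, the oocyte kinase that holds CDK1 inactive in prophase, was at 462.6 ± 4.41 FPKM in MII and 582.6 ± 18.8 FPKM in GV (SD, n = 3 each), a fall of 0.33, and MASTL, which is Greatwall itself, fell by 0.23. Of 4 tested CDK inhibitor genes 2 were lower and 2 not called in limma, with a median of -0.21. CDKN1B fell by 0.33, and CDKN1C fell by 1.03 with a MII mean under 1 FPKM.

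Genes of cyclin destruction had 3 of 13 tested members higher and 8 lower, with a median of -0.22. FBXO43, which maintains MII arrest by blocking the anaphase-promoting complex, was at 18.5 ± 1.17 FPKM in MII and 46.6 ± 4.45 FPKM in GV (SD, n = 3 each), a fall of 1.29. The ubiquitin ligase scaffold CUL1 fell by 1.05. FZR1, an activator of the anaphase-promoting complex that keeps cyclin B low in prophase, rose by 0.42. UBE2S rose by 0.32, a call lost under 7 alternatives, including the replicate block (adjusted p = 0.055).

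Regulators of stored and CPE-controlled mRNAs, whose 3′ UTR carries the cytoplasmic polyadenylation element, had 7 of 20 tested members higher and 7 lower, with a median of 0.02. CPEB3, which binds that element, was at 15.2 ± 0.359 FPKM in MII and 4.74 ± 0.827 FPKM in GV (SD, n = 3 each), a rise of 1.505. The oocyte cap-binding factor EIF4E1B rose by 1.005. CPEB2 fell by 1.29 and TENT2, a cytoplasmic poly(A) polymerase, fell by 0.41.

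**Figure D4:**
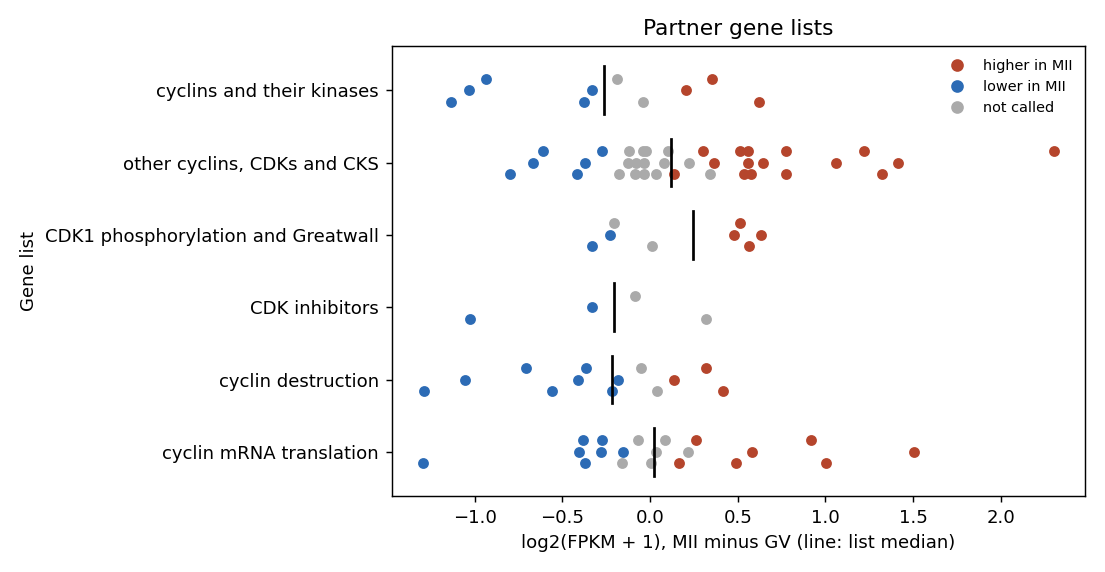
Change of every tested gene in the family and in the 5 partner lists, MII minus GV on the log2(FPKM + 1) scale, coloured by limma call, with a line at each list's median. The medians run from -0.26 for the cyclins and their kinases to 0.24 for the CDK1 phosphorylation and Greatwall genes.

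In the m6A maps, 9 of the 10 members carried a MII peak and 3 carried a GV peak. The MII list is longer, with 22298 peaks against 14222 in the GV list, and 73.8% of all tested genes had a MII peak and 54.1% a GV peak. A MII peak without a GV peak was found in 6 members (CCNB1, CCNE1, CCNE2, CDK1, CDK2 and CKS2), against 24.8% of all tested genes. CCNO had no peak in either list. MII and GV peaks were each more frequent among genes at 15 FPKM or more than among all tested genes. The GV share was lower again, at 58.9%, among genes at 100 FPKM or more. Of 4773 genes with a mean of 15 FPKM or more, a minimum chosen after the values were seen, 87.9% had a MII peak, 65.5% a GV peak and 24.3% a MII peak alone. Of the 8 members at that level 7, 3 and 4 did, so the share with a MII peak was near the background and the share with a GV peak below it. Each list is a single set with no replicate spread, enrichments are the authors' log2 values of immunoprecipitate over input, and neither depth nor pull-down efficiency was examined here. A peak in 1 list alone therefore does not measure a difference in methylation. Coordinates are those of the authors' files, counted from 1, on a build that the sources used here do not give. Spans include introns.

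Most GV peaks of members had a lower enrichment than the median GV peak, without a test. The 13 MII peaks of members ran from 0.98 to 2.81 with a median of 1.58, close to the 1.67 of all MII peaks. The 5 GV peaks of members ran from 0.90 to 2.76 with a median of 1.08, against 2.62 over all GV peaks, and 1 of the 5 was above that median.

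CCNB1 carried 2 MII peaks, both weak for the list. A 120 bp peak over the start codon (chromosome 20, 10517583 to 10517702) had a log2 enrichment of 0.98, in the 17.3rd percentile of MII peaks. An exonic peak spanning 5649 bp (10509218 to 10514866) had 1.07. CCNB1 had no GV peak, at the stage with the higher input level. A GV peak was listed for 58.9% of genes at 100 FPKM or more, also a minimum chosen after the values were seen, and for 2 of the 4 members at that level (CCNA2 and CCNB3, not CCNB1 or CKS2).

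CCNB2 carried a MII peak over the start codon (chromosome 10, 51207259 to 51209279, log2 1.58) and an exonic MII peak spanning 10976 bp (51186436 to 51197411, log2 2.03). The second covered its only GV peak, which was 90 bp long (51195494 to 51195583, log2 1.16). CCNA2 had a MII peak from the gene's first base through 88.9% of its span (chromosome 6, 3425574 to 3431008, log2 2.66), and within it lay the single GV peak of 327 bp (3428546 to 3428872, log2 0.90).

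CCNB3 held 3 of the 5 GV peaks of the family. The highest, exonic and 1528 bp long (chromosome X, 87972930 to 87974457), had a log2 enrichment of 2.76. The MII peak over the start codon (87970030 to 87974427) covered 1498 bp of it and had 2.31. The third GV peak (87974607 to 87976879, log2 1.08) and the exonic MII peak (87974607 to 87995959, log2 1.29) began at the same base.

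Among the kinases, CDK1 had 1 MII peak over the start codon (chromosome 28, 16488231 to 16493288, log2 1.496) that covered 5.36% of the gene's span, and CDK2 had 1 over the start codon (chromosome 5, 57343387 to 57344387, log2 1.37). CKS2 had an 87 bp MII peak in the 5′ UTR (chromosome 8, 88796244 to 88796330, log2 1.11). CCNE2, the least abundant member, had the highest MII enrichment of the family. As CCNE2 had a MII input mean of 0.801 FPKM, the size of its enrichment over input is uncertain. It had an exonic peak with 2.81 (chromosome 14, 69449400 to 69450578) and a stop codon peak with 2.73, whose adjusted p of 0.27 in the list does not pass an FDR of 0.05, and the other E-type cyclin, CCNE1, had an exonic peak with 1.71 (chromosome 18, 40424498 to 40428678).

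**Figure D5:**
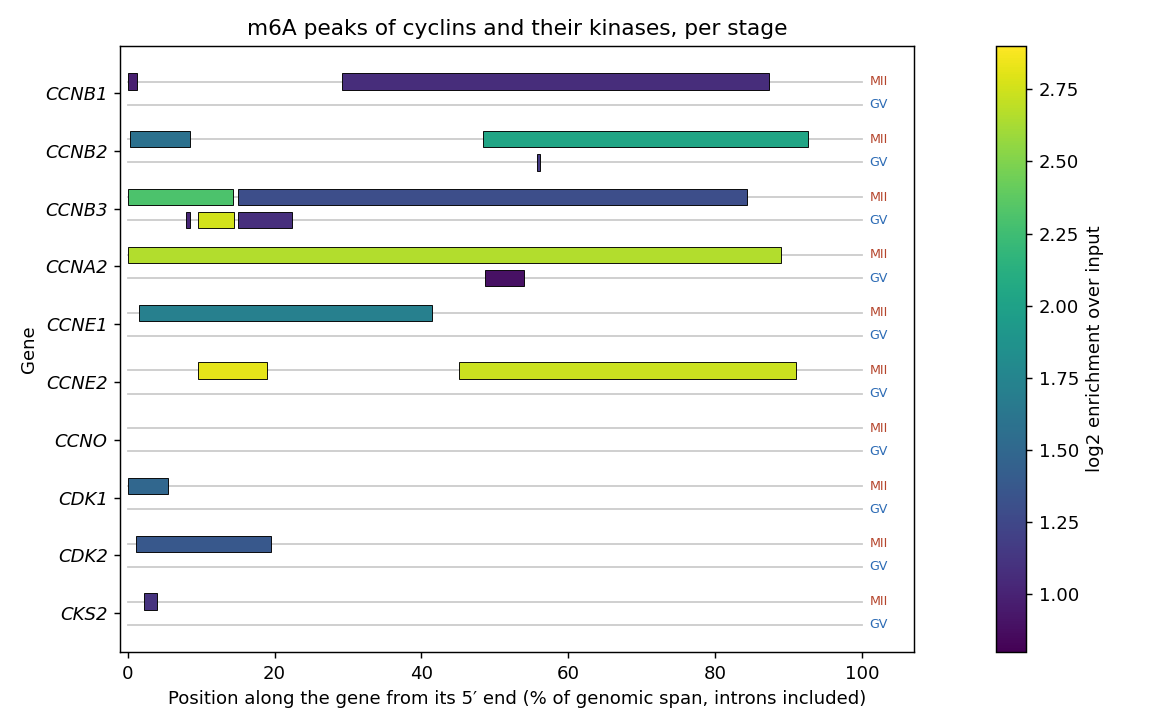
Peaks of each member along its gene, from the 5′ end at the left (percent of genomic span, introns included), MII above GV, coloured by log2 enrichment over input. In MII 6 members have a peak over the start codon, in GV the 5 peaks are exonic and lie in CCNB2, CCNB3 and CCNA2, and CCNO has none.

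The start codon was the most frequent annotation of MII peaks in the family, closely followed by exonic with 5 peaks. In MII 6 of the 13 member peaks, in CCNB1, CCNB2, CCNB3, CCNA2, CDK1 and CDK2, were annotated to the start codon, against 10.5% of all MII peaks. In GV 0 of 5 were, against 5.9% of all GV peaks. Of the 4773 genes at 15 FPKM or more 31.2% had such a MII peak, as did 6 of the 8 members at that level. These 6 peaks began 0 to 89 bases after the gene's annotated start. They spanned from 120 bp (CCNB1) to 5435 bp (CCNA2), introns included. The median span was 4398 bp for MII peaks of members and 934 bp for all MII peaks. Whether wide peaks take the start codon label more often was not tested, so the label does not place the mark at the start codon. Counting any shared base on 1 strand as overlap, 4 of the 13 MII member peaks met a GV peak, against 39.9% of all MII peaks, and 5 of the 5 GV member peaks met a MII peak, against 64.1% of all GV peaks. With at least 50% of both spans shared, 0 of the 13 MII member peaks met a GV peak, against 17.7% of all MII peaks.

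In the authors' deposited table of differential peaks, 5 members had 7 peaks, all 7 higher in MII at an FDR under 0.05. In that direction passed 63.0% of the 8682 peaks that the authors' deposited table holds. Such a peak in the authors' deposited table was held by 30.8% of all tested genes and by 58.7% of genes at 15 FPKM or more, so 5 of the 8 members at that level is near the background. In the authors' deposited table the start codon peak of CCNB2 changed by 2.44 on the log2 scale (adjusted p = 3.2e-35), that of CDK1 by 2.30 (7.9e-24) and that of CCNA2 by 2.11 (1e-176). The start codon peak of CCNB3 changed by 1.79 and that of CDK2 by 1.62 in the authors' deposited table, where the exonic peaks of CCNB2 and CCNB3 changed by 1.53 and 0.67. The authors' own criteria also ask for a log2 size of 1. By their flag the exonic peak of CCNB3 is not significant, while the other member peaks are. The CCNB3 start codon entry of the authors' deposited table (87970030 to 87972272) ended before the highest GV peak of that gene began. No peak of CCNB1, CKS2, CCNO, CCNE1 or CCNE2 was in the authors' deposited table.

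The peak change and the input change had the same direction in 3 of these 5 genes. As every peak change was upward, this only restates which genes had a higher input level. The share over all genes was not computed. CCNA2 had a higher peak and a lower input level in MII. CCNB2, CDK1 and CDK2 had higher peaks and higher input levels, though the input call of CDK1 was lost under 5 alternatives. CCNB3 had higher peaks in the authors' deposited table, the exonic one under the authors' size criterion, and its input change was not called. The highest GV peak of CCNB3 lay outside those entries. Its log2 enrichment was 2.76, against 2.31 for the MII peak that overlapped it.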

How the data were processed

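Input and m6A immunoprecipitated libraries of MII and GV bovine oocytes were grouped by their titles, and members and gene lists were chosen with earlier results of these data known. FPKM values per gene and input library were used as deposited by the authors. The log2 values of peaks (enrichment over input, and MII against GV change) and their p-values were used as deposited by the authors, per the file headers. The submitters' processing notes list HISAT2 2.0.4, fastp 0.19.4, HOMER 4.10, StringTie 2.1.2 and edgeR 4.1 without saying what each did. The sources used here do not give the peak caller, the genome build or whether libraries were pooled. Read depth was not estimated here, so no counting interval is given.

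All genes averaging 1 FPKM or more over the 6 input libraries entered 1 limma fit (version 3.58.1, under R 4.3.3) of log2(FPKM + 1) on stage. Its 2-sided p-values, from eBayes with a trend, were adjusted by Benjamini-Hochberg and called at 0.05. A change on this scale understates that of low genes. The fit was tested on simulated data. Ratios were taken within libraries and compared by exact permutation. Peak starts count from 0 in the files (of MII peaks, 1672 begin 1 base before a gene's first base by the file's number, 0 exactly on it). Of 3975 differential peaks at an FDR under 0.05 that overlap both lists, 84.6% have the sign of the MII minus GV enrichment in the lists, which gives the direction of the deposited change.

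Named were all 10 members, the 2 largest rises and falls among called genes of each list, and the 3 nearest genes by distance to CCNB1 and CDK1. DDX4, DAZL, FSHR, CYP19A1 and the called cumulus and granulosa markers were named after their values were seen. Alternatives were other constants, filters, scalings and variance models, the replicate block, each library left out and other peak thresholds and overlaps. Sequences of members were not used here.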

Additional observations from a re-analysis of the deposited data

How the results depend on the processing

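Calls of CCNB1, CCNB2, CCNA2, CCNE2, CCNO, CDK2 and CKS2 kept their direction and stayed under the threshold in every alternative that could be run, and CCNB3 was called in none. CCNE2 and CCNE1 are not tested with a filter at 5 FPKM. With a library left out, the change of CCNE1 ranged from -0.42 to 0.083 (the highest without MII library 3), against -0.19 with all libraries. Between 7 and 8 members were called over all alternatives, including rescaling on protein-coding genes, which was chosen after seeing the data. Same-numbered libraries of the stages did not deviate together (correlations over genes of -0.055, -0.060 and 0.013). This cannot show whether they share animals or a culture run, which the labels do not give. With a replicate block 8 members were called, 3 higher and 5 lower. For the ratios the block leaves the difference unchanged by arithmetic, so it says nothing on how firm that difference is. The differences were -1.15 for CCNB1 to CDK1, -1.29 for CCNB1 to CCNB2 and -0.94 for CCNE2 to CCNE1. An exact test that flips the signs of within-pair differences gave p = 0.25 for each, a value that 3 pairs cannot go below. Without the block, the difference for CCNE2 to CCNE1 was -1.52 with a constant of 0.1. With a filter at 5 FPKM, which tests fewer genes, 13 other cyclins, kinases and CKS genes were called, 8 higher, and 1 CDK inhibitor, which was lower. With no filter, which tests more genes, 4 CDK inhibitors were called, 2 of them higher. Cyclin destruction genes called higher were 1 with median scaling, without mitochondrial genes and with the replicate block, and the cause was not tested. With a library left out, 7 to 10 cyclin destruction genes were called, 1 to 2 of them higher, and 0 to 1 CDK inhibitors were higher. No MII member peak met a GV peak by 50% of both spans, giving 0 in place of 4, against 17.7% of all MII peaks. At an FDR under 0.05 there were 12 MII and 5 GV member peaks.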
